A study of Mus musculus with 12 samples.

Results

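The S100 proteins and annexins described here are the products of 10 genes, S100a4, S100a6, S100a10, S100a11, S100a13, Anxa1, Anxa2, Anxa4, Anxa5 and Anxa6, of which 9 could be read. Members were taken as all probe sets of the array that the annotation pairs with exactly 1 of these gene symbols, which gave 19 probe sets among 45037 and 9 genes among 18193. The only probe set of S100a11, a binding partner of Anxa1, carries 3 symbols, among them a pseudogene, and no value is given for it. The study hybridised RNA of 12 samples to Affymetrix Mouse Genome arrays, with 1 array per sample. Every sample came from spleen T cells of female C57BL/6 mice aged 8 to 12 weeks.

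The 5 samples of CD8+ NKT-like cells were spleen CD8+ cells expanded with beads that carry anti-CD3 and anti-CD28 and a high dose of IL-2, and they suppress other T cells strongly. The 3 samples of cultured CD4+ cells went through the same culture and suppress only weakly. The 2 samples of activated CD8+ cells had received a low dose of both antibodies in soluble form, and the 2 samples of naive CD8+ cells were fresh. Neither of the last groups suppresses. The comparisons ask which genes mark the suppressive cells and which follow from the culture or from activation. The coreceptor genes followed the labels, with Cd8a lowest and Cd4 highest in the cultured CD4+ samples. Fresh CD4+ cells were not analysed here, so in the difference of cultured CD4+ from naive CD8+ cells the lineage and the culture cannot be told apart.

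S100 proteins are small proteins, most of them calcium-binding, that work mostly as pairs. In most of them calcium opens a binding surface, and the S100 protein then attaches to a partner. Annexins bind acidic membrane lipids when calcium rises, and serve in membrane repair, vesicle traffic and the uptake of dying cells. The families meet in complexes, S100a10 with Anxa2 and S100a11 with Anxa1, which join membranes to the actin cytoskeleton. In T cells several of these genes are known as part of the expression pattern of effector and memory cells.

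The genes with the widest range between the groups were S100a4, S100a6, Anxa1 and Anxa2, and their promoters are shown so that the letters around each start site can be read beside the values. The sequences are those of RefSeq on GRCm38.p6, 5′ to 3′ on the strand of the gene, and each runs from 250 bases before to 50 bases after the start. S100a4 is at chr3:90603520-90603819 on the + strand, S100a6 at chr3:90612644-90612943 on the + strand, Anxa1 at chr19:20390622-20390921 on the - strand and Anxa2 at chr9:69453433-69453732 on the + strand. Capitals mark matches, on either strand, to TGANTCA (AP-1), TTCNNNGAA (STAT), GGGCGG (SP and KLF factors), TGTGGTT (RUNX) and TATAAA (the TATA box).
S100a4: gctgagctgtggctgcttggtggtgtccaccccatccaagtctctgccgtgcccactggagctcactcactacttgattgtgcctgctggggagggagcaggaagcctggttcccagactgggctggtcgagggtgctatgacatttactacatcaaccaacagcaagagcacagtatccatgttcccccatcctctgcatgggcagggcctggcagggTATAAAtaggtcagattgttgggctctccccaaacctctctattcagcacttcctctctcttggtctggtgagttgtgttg
S100a6: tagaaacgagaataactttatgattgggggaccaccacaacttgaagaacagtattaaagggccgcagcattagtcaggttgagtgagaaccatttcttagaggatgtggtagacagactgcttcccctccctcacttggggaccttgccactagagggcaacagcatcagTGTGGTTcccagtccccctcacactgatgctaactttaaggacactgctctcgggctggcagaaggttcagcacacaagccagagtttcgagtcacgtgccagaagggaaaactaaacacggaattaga
Anxa1: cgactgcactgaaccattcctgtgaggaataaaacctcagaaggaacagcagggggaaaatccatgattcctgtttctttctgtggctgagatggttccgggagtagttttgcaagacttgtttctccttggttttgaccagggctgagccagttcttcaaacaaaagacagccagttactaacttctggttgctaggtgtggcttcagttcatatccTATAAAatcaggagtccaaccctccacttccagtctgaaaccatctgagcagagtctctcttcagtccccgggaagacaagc
Anxa2: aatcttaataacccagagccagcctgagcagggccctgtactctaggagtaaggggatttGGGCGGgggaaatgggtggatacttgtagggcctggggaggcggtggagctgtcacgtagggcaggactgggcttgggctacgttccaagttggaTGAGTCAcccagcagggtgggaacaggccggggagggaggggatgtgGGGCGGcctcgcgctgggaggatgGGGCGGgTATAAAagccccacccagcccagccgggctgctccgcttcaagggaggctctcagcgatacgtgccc

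TATAAA stands 31 bases before the start of S100a4, 32 before that of Anxa1 and 17 before that of Anxa2. It was added to the search after the sequences had been seen. Those are 3 of the 9 promoters found for 8 of the 10 genes, and the same letters occur in 13.6% of all 32851 promoters in the table. TGANTCA was present in the promoters of Anxa2, 95 bases before the start, and of S100a11, against 7.81% of all promoters. GGGCGG was present 3 times before the start of Anxa2, and also in the promoters of Anxa4 and S100a11, against 35.7% of all. TGTGGTT was found only in the promoter of S100a6 among the members, 79 bases before the start, and in 5.27% of all promoters. TTCNNNGAA was in none of the 9 and in 8.3% of all. No entry was found for S100a10 and Anxa6.

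Expansion with beads and IL-2 went with high S100 and annexin signals in both lineages. In the NKT-like cells 8 of the 9 genes rose against naive CD8+ cells, by 2.56-fold to 42.8-fold, and none fell. The threshold was a q-value of at most 0.01 in limma, computed over all probe sets of the comparison, and each gene was read from the brightest of its probe sets on average. Of all probe sets 7.83% were called higher in this comparison and 8.52% lower, and of all genes 11% were called higher. The median difference of the 9 genes was 2.30 log2 against -0.10 for all probe sets. In the cultured CD4+ cells the same 8 genes rose against naive CD8+ cells, by 2.23-fold to 25.6-fold, where 8.18% of all probe sets were called higher and 7.31% lower. Of all genes 11.8% were called higher in this comparison and 5.61% lower. There the median difference was 1.92 log2 against -0.10 for all probe sets. Anxa6 was the gene that passed in neither comparison. In each culture every sample lay above both naive samples for 8 of the 9 genes. Over all probe sets 16.1% lay wholly above and 32.5% wholly below in NKT-like over naive cells. In cultured CD4+ over naive cells these shares were 19.6% and 32.3%. Both comparisons use the same 2 naive samples. As these are bulk samples, fewer cells of a type and less RNA per cell cannot be told apart.

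**Figure D1:**
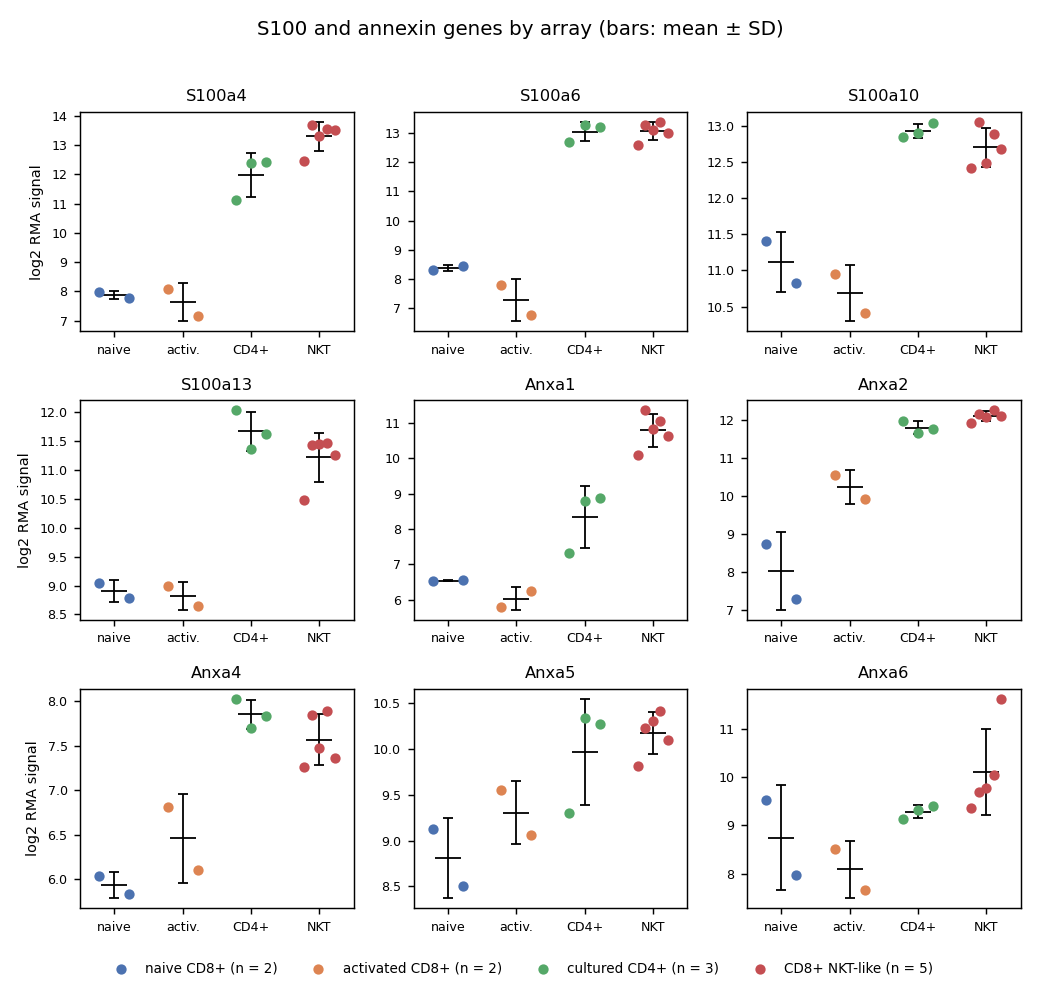
Log2 RMA signal of 9 S100 and annexin genes on each of the 12 arrays (y axis, a separate range for each gene), by group (x axis). Points are arrays and bars are the mean ± SD. For S100a4, S100a6, S100a10, S100a13, Anxa1, Anxa2, Anxa4 and Anxa5 every NKT-like and cultured CD4+ point lies above both naive points. Of all probe sets 16.1% lie wholly above in NKT-like and 19.6% in cultured CD4+ over naive cells. For Anxa6 the naive points overlap with those of both cultures.

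S100a4, which binds non-muscle myosin and is tied to cell motility, read 12.45, 13.67, 13.30, 13.55 and 13.51 log2 in the 5 NKT-like samples, 11.11, 12.40 and 12.43 in the cultured CD4+ samples, 7.98 and 7.77 in the naive samples and 8.09 and 7.17 in the activated samples. All cultured samples of both lineages lay above all naive and activated samples, and the naive and activated samples overlapped. The rise over naive cells was 42.8-fold in the NKT-like cells (95% confidence interval 22.9 to 79.8, q = 4.9e-06) and 17.2-fold in the cultured CD4+ cells (8.69 to 33.9, q = 6.3e-05). Against activated CD8+ cells, S100a4 was 50.9-fold higher in the NKT-like cells (q = 1.6e-05) and 20.4-fold higher in the cultured CD4+ cells (q = 0.00031). Every NKT-like sample also lay above every cultured CD4+ sample, but that difference of 2.49-fold (1.45 to 4.30) did not pass (q = 0.059). The lowest value of each cultured group was that of its replicate 1.

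S100a6, or calcyclin, a partner of annexins and of the ubiquitin pathway protein Cacybp, read 12.59, 13.29, 13.11, 13.38 and 12.99 log2 in the NKT-like samples, 12.69, 13.27 and 13.20 in the cultured CD4+ samples, 8.29 and 8.46 in the naive samples and 7.79 and 6.76 in the activated samples. The values of the cultured lineages overlapped and lay far above both CD8+ control groups. S100a6 rose 25.9-fold over naive cells in the NKT-like cells (q = 8.2e-07) and 25.6-fold in the cultured CD4+ cells (q = 1.6e-06). The NKT-like and cultured CD4+ means differed by 1.01-fold with an interval of 0.700 to 1.47 (q = 0.87), and the sign of this difference turned to 0.990-fold after quantile normalization. Both activated samples lay below both naive samples, at 0.465-fold (0.281 to 0.772), which did not pass (q = 0.036). Against the activated cells the NKT-like cells were 55.7-fold higher (q = 1.4e-06) and the cultured CD4+ cells 55-fold higher (q = 2.5e-06).

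S100a10, the partner of Anxa2 and a docking site for plasminogen, read 12.42, 13.05, 12.48, 12.88 and 12.68 log2 in the NKT-like samples, 12.85, 12.90 and 13.04 in the cultured CD4+ samples, 11.41 and 10.83 in the naive samples and 10.96 and 10.41 in the activated samples. Every cultured sample lay above every naive and activated sample. S100a10 rose 3.00-fold over naive cells in the NKT-like cells (2.17 to 4.14, q = 0.00022) and 3.5-fold in the cultured CD4+ cells (2.46 to 4.99, q = 0.00017). Over activated cells it was 4.05-fold higher (q = 0.00021) and 4.74-fold higher (q = 0.00033) in these groups. The cultured lineages overlapped, with an NKT-like to CD4+ ratio of 0.855 (0.645 to 1.14, q = 0.61). Without naive replicate 2 the rise in the NKT-like cells was 2.45-fold and missed the threshold (q = 0.0101).

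S100a10 has another probe set, 1456642_x_at, whose name marks possible binding to other sequences. It gave a rise of 2.40-fold in the NKT-like cells (q = 0.00037) and 2.36-fold in the cultured CD4+ cells (q = 0.00073). The third, 1439348_at, had naive values of 7.99 and 7.92 and passed in no comparison. So the rise of S100a10 was read by 2 of its 3 probe sets. With the 3 averaged, S100a10 still passed over naive cells, at 1.87-fold in the NKT-like and 1.86-fold in the cultured CD4+ cells, and the latter were 2.94-fold above activated cells.

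S100a13 takes part in the release from cells of Fgf1 and Il1a, proteins that have no signal peptide. It read 10.48, 11.43, 11.45, 11.46 and 11.26 log2 in the NKT-like samples, 12.03, 11.36 and 11.62 in the cultured CD4+ samples, 9.05 and 8.78 in the naive samples and 9.0 and 8.65 in the activated samples. The naive and activated values were interleaved, and all cultured values lay above them. S100a13 rose 4.94-fold over naive cells in the NKT-like cells (3.29 to 7.42, q = 8.5e-05) and 6.76-fold in the cultured CD4+ cells (4.34 to 10.5, q = 5.3e-05). It was also 5.25-fold (q = 0.00029) and 7.19-fold (q = 0.00031) above the activated cells. The NKT-like to CD4+ ratio was 0.730 (0.512 to 1.04, q = 0.36).

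Among the annexins, Anxa1, a phospholipid-binding protein that dampens inflammation through formyl peptide receptors, differed most between the lineages in culture. It read 10.11, 11.36, 10.82, 11.06 and 10.65 log2 in the NKT-like samples, 7.32, 8.80 and 8.89 in the cultured CD4+ samples, 6.53 and 6.55 in the naive samples and 5.81 and 6.26 in the activated samples. The groups were ordered without overlap, NKT-like above cultured CD4+, above naive, above activated. Anxa1 was 5.51-fold higher in the NKT-like cells than in the cultured CD4+ cells (3.2 to 9.49, q = 0.0020), and was the only one of the 9 genes to pass there. In that comparison 0.85% of all probe sets and 1.24% of all genes were called higher, and 1.33% and 1.83% lower.

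Against naive cells, Anxa1 rose 19.2-fold in the NKT-like cells (10.3 to 35.7, q = 2.5e-05) and 3.48-fold in the cultured CD4+ cells (1.76 to 6.86, q = 0.0064). The rise in CD4+ cells was lost when cultured CD4+ replicate 2 or 3 or either naive sample was left out, with folds of 2.87 to 3.5 and q-values of 0.0289 to 0.0569. Over activated cells Anxa1 was 27.2-fold higher in the NKT-like cells (q = 5.0e-05), while the 4.93-fold difference of the cultured CD4+ cells did not pass (q = 0.013). Without cultured CD4+ replicate 1, the lowest of its group, that difference was 7.01-fold and passed (q = 0.000929). Activated over naive cells gave 0.705-fold (0.335 to 1.48, q = 0.38). The other Anxa1 probe set, 1444016_at, stayed near the lower end of the scale in all groups, with means of 5.18 to 5.37 log2, and passed nowhere. With both probe sets averaged, Anxa1 gave 4.30-fold in NKT-like and 1.82-fold in cultured CD4+ over naive cells, 2.36-fold between the cultured lineages, and 5.46-fold and 2.31-fold over activated cells, all of which passed.

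Anxa2 binds S100a10 at the inner face of the plasma membrane. Read from its brightest probe set, it was the 1 gene of the 9 that also rose in activated CD8+ cells. It read 11.93, 12.18, 12.09, 12.26 and 12.13 log2 in the NKT-like samples, 11.99, 11.66 and 11.79 in the cultured CD4+ samples, 10.57 and 9.94 in the activated samples and 8.75 and 7.31 in the naive samples. The activated values lay between those of the cultured and the naive samples without touching either. The rise over naive cells was 17.0-fold in the NKT-like cells (10.7 to 27.0, q = 4.2e-06), 13.7-fold in the cultured CD4+ cells (8.30 to 22.7, q = 1.5e-05) and 4.67-fold in the activated cells (2.69 to 8.11, q = 0.0023). Of all probe sets 3.1% were called higher in activated cells and 2.6% lower, and of all genes 4.5% and 2.75%.

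For Anxa2 the SD of the 2 naive samples was 1.02 log2, and the size of each rise moved with them. Without naive replicate 1 the rises were 28.0-fold, 22.7-fold and 7.70-fold in NKT-like, cultured CD4+ and activated cells. Without naive replicate 2 they were 10.3-fold, 8.33-fold and 2.83-fold. All of these passed. The rise in activated cells did not pass without activated replicate 1 (3.75-fold, q = 0.0241) or when the naive and activated samples were fitted alone (q = 0.0669).

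Between the cultured lineages Anxa2 differed by 1.24-fold (0.827 to 1.85, q = 0.63). Its signal in the NKT-like cells was 3.64-fold above that in the activated cells (q = 0.0030), and this call was lost without activated replicate 2 (2.92-fold, q = 0.0510). The cultured CD4+ cells were 2.94-fold above the activated cells, which did not pass (q = 0.020) unless naive replicate 1 or 2 was left out (q = 0.00151). Probe set 1437692_x_at of Anxa2 gave smaller rises over naive cells, 1.80-fold in the NKT-like (q = 0.0013) and 1.72-fold in the cultured CD4+ cells (q = 0.0032). By this probe set the activated and naive values overlapped, and their 1.14-fold difference (0.865 to 1.51) did not pass (q = 0.37). Nor did its 1.57-fold difference of NKT-like from activated cells (q = 0.019). Probe set 1437691_at averaged 3.94 to 4.03 log2 in the 4 groups and passed in no comparison. With the 3 probe sets averaged, Anxa2 rose 3.10-fold, 2.91-fold and 1.75-fold over naive cells in the NKT-like, cultured CD4+ and activated cells, and the NKT-like cells were 1.77-fold above the activated ones.

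Anxa4, an annexin of secretory and apical membranes, read 7.26, 7.84, 7.47, 7.89 and 7.36 log2 in the NKT-like samples, 8.03, 7.70 and 7.83 in the cultured CD4+ samples, 6.82 and 6.11 in the activated samples and 6.04 and 5.83 in the naive samples. Here too the cultured samples lay above all others, and the 2 activated samples above the 2 naive ones. Anxa4 rose 3.11-fold over naive cells in the NKT-like cells (q = 0.00020) and 3.79-fold in the cultured CD4+ cells (q = 0.00014), and the 1.44-fold difference of the activated cells did not pass (q = 0.16). Over activated cells it was 2.15-fold higher in the NKT-like (q = 0.0077) and 2.63-fold higher in the cultured CD4+ cells (q = 0.0066).

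These last Anxa4 calls were close to the threshold. The first was lost when any of 9 arrays was left out, namely NKT-like replicate 2, 3, 4 or 5, cultured CD4+ replicate 2 or 3, either naive sample or activated replicate 2, with q-values of 0.0113 to 0.103. The second was lost for 7 arrays, namely NKT-like replicate 3, any cultured CD4+ sample, either naive sample or activated replicate 2, with q-values of 0.0101 to 0.0833. Probe set 1424176_a_at of Anxa4 gave 1.56-fold over naive cells in the NKT-like (q = 0.0024) and 1.51-fold in the cultured CD4+ cells (q = 0.0054). Over activated cells it gave 1.56-fold in the NKT-like cells (q = 0.0091) and 1.51-fold in the cultured CD4+ cells, which did not pass (q = 0.034). Probe set 1457658_x_at passed nowhere. The average of the 3 Anxa4 probe sets rose 1.72-fold and 1.82-fold over naive cells in these groups, and was 1.69-fold higher in cultured CD4+ than in activated cells.

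Anxa5, which binds the phosphatidylserine that dying cells expose, read 9.82, 10.22, 10.30, 10.41 and 10.10 log2 in the NKT-like samples, 9.30, 10.33 and 10.27 in the cultured CD4+ samples, 9.55 and 9.06 in the activated samples and 9.12 and 8.50 in the naive samples. The cultured samples lay above the naive ones, but cultured CD4+ replicate 1 lay between the activated values. The rise over naive cells was 2.56-fold in the NKT-like cells (1.66 to 3.96, q = 0.0027) and 2.23-fold in the cultured CD4+ cells (1.39 to 3.58, q = 0.0092). The first did not pass without naive replicate 2 (2.07-fold, q = 0.0804). The second was lost without any one NKT-like sample, cultured CD4+ replicate 2 or 3, or either naive sample (1.80-fold to 2.77-fold, q from 0.0107 to 0.131). No difference of Anxa5 from activated cells passed, with 1.82-fold in the NKT-like (q = 0.064) and 1.59-fold in the cultured CD4+ cells (q = 0.24).

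Anxa6, a large annexin of the plasma membrane and endosomes, passed in none of the 6 comparisons by its main probe set 1415818_at. It read 9.37, 9.70, 9.78, 10.04 and 11.62 log2 in the NKT-like samples, 9.14, 9.31 and 9.41 in the cultured CD4+ samples, 8.51 and 7.66 in the activated samples and 9.51 and 7.97 in the naive samples. Naive replicate 1 lay among the cultured samples and naive replicate 2 among the activated ones. NKT-like over naive cells gave 2.56-fold (1.11 to 5.93, q = 0.040), and leaving out a naive sample moved this between 1.5-fold and 4.37-fold. Cultured CD4+ over naive cells gave 1.46-fold (0.582 to 3.64, q = 0.22), which ran from 0.853-fold to 2.48-fold as the naive samples were left out.

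The probe sets of Anxa6 did not move together. Probe set 1429246_a_at followed the main one, at 7.44, 7.97, 7.90, 8.24 and 10.47 log2 in the NKT-like samples and 7.89 and 6.08 in the naive ones, and passed nowhere. Probe set 1429247_at was highest in the naive samples at 7.90 and 7.15, against 6.3 to 7.08 in the NKT-like, 6.22 to 6.31 in the cultured CD4+ and 6.14 and 6.11 in the activated samples. By this probe set Anxa6 was 0.415-fold in cultured CD4+ (q = 0.0017) and 0.378-fold in activated cells (q = 0.0047) relative to naive cells, and 0.590-fold in NKT-like cells, which did not pass (q = 0.012). Probe set 1442288_at was likewise lower in cultured CD4+ cells, at 0.516-fold of naive cells (q = 0.0059). The sources used here do not say which stretch of the transcript each probe set reads.

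**Figure D2:**
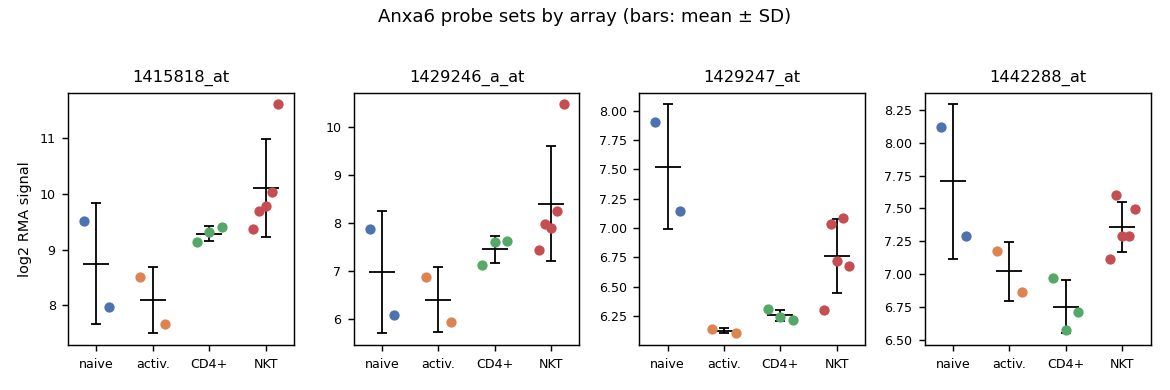
Log2 RMA signal (y axis, a separate range for each panel) of the 4 Anxa6 probe sets on each array, by group (x axis), with points for arrays (blue naive, orange activated, green cultured CD4+, red NKT-like) and bars for the mean ± SD. 1415818_at and 1429246_a_at have their highest point in NKT-like replicate 5, at 11.62 and 10.47, while 1429247_at and 1442288_at have theirs in naive replicate 1, at 7.90 and 8.12.

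With soluble activation 1 of the 9 genes, Anxa2, rose against naive cells and none fell, where 4.5% of all genes were called higher and 2.75% lower. The median difference was -0.25 log2 against -0.07 for all probe sets. Both activated values lay above both naive values for Anxa2 and Anxa4, and below them for S100a6 and Anxa1. Over all probe sets 17.7% lay wholly above and 26.7% wholly below in this comparison of 2 with 2 samples. S100a4, S100a10 and S100a13 gave 0.840-fold (0.399 to 1.77), 0.740-fold (0.502 to 1.09) and 0.940-fold (0.578 to 1.53), and their values overlapped between the groups.

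Set directly against activated CD8+ cells, 7 of the 9 genes were higher in the NKT-like cells, by 2.15-fold to 55.7-fold. In that comparison 2.19% of all probe sets and 3.36% of all genes were called higher, and 0.979% and 0.967% lower. Of the 9 only Anxa5 and Anxa6 did not pass there. In the cultured CD4+ cells 5 of the 9 were higher than in activated cells, the 4 S100 genes and Anxa4. Here 1.11% of all probe sets and 1.52% of all genes were called higher, and 0.351% and 0.324% lower. The antibodies, the IL-2 and the length of culture differ together between these groups, so their parts cannot be told apart. Every NKT-like sample lay above every activated sample for all 9 genes, as did 10.2% of all probe sets. For cultured CD4+ over activated samples this held for 8 of the 9 genes and 12.3% of all probe sets.

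Between the cultured lineages only Anxa1 passed, and S100a4 was wholly higher in the NKT-like samples without passing. The other 7 genes overlapped, with ratios of 0.730 to 1.76. Over all probe sets 5.59% lay wholly above and 6.68% wholly below in the NKT-like samples. Their intervals reached at most 3.66-fold, for Anxa6, and for S100a6, S100a10, Anxa2, Anxa4 and Anxa5 they stayed between 0.614 and 1.85. That S100a4 and Anxa1 differ from the other members in this respect was not tested.

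**Figure D3:**
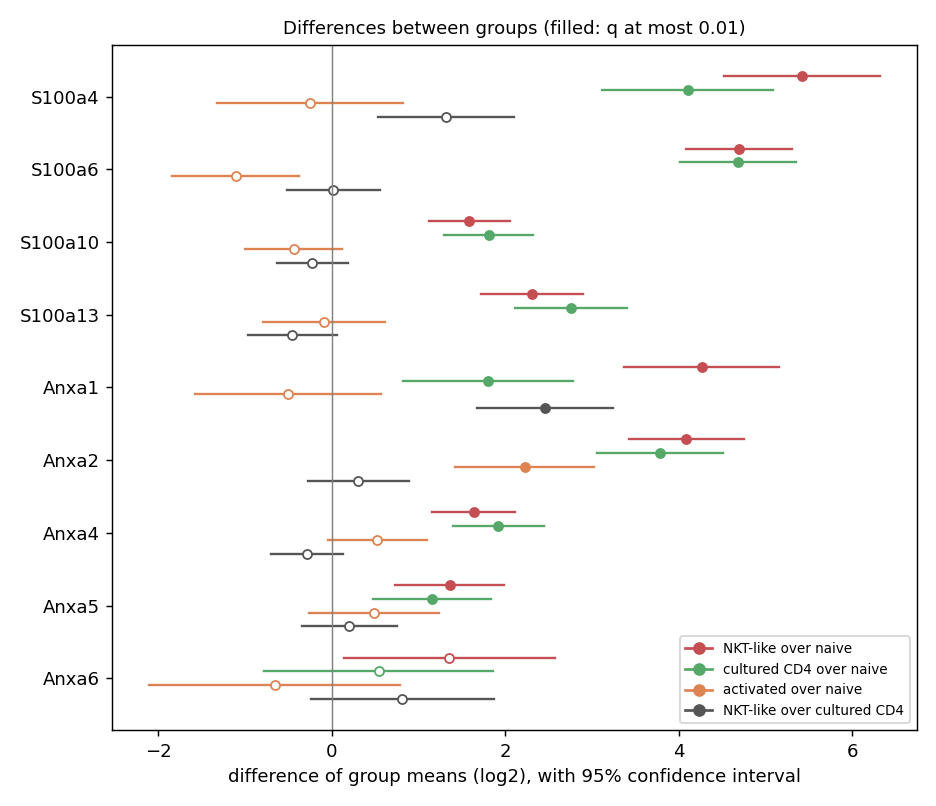
Difference of group means in log2 (x axis) for 9 S100 and annexin genes (y axis) in 4 comparisons. Bars are 95% confidence intervals and filled points have q at most 0.01. The differences from naive cells of the NKT-like and cultured CD4+ groups are filled for all genes but Anxa6, that of the activated group is filled only for Anxa2 and that between the cultured lineages only for Anxa1.

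The samples within a group shared an order across the genes. NKT-like replicate 1 was the lowest of its group for all 9 genes, activated replicate 2 for 8, naive replicate 2 for 7 and cultured CD4+ replicate 1 for 6. These same arrays had the lowest summed linear signal of 9 T cell markers in their groups, 12428 against 19599 to 21344 in the other NKT-like samples, 10742 against 15005 in the activated, 12197 against 23163 in the naive and 18077 against 20135 and 20483 in the cultured CD4+ samples. The SD of the log2 values over an array was 1.8 on activated replicate 2 against 2 on replicate 1, and 1.78 on naive replicate 2 against 1.83. On cultured CD4+ replicate 1 it was 1.91 against 2.03 and 2.01, and on NKT-like replicate 1 it was 1.96 against 1.95 to 2. What part the T cell signal and the array SD have in the members' differences was not tested. How often each array was the lowest of its group over all probe sets is not given here, so the order cannot be called particular to the members.

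Markers of other cells also differed between groups. The summed signal of 7 of 8 B cell markers was 21422 to 23588 in the naive samples, 3091 to 4511 in the activated, 1143 to 1634 in the cultured CD4+ and 823 to 1915 in the NKT-like samples. For 6 of 8 markers of red cell precursors it was 5673 to 8216 in the naive samples and 533 to 734 in all others. The part of these cells in the differences from naive samples was not tested. Myeloid cells, which carry several S100 proteins and annexins in large amounts, gave sums over 12 of 14 markers of 1294 to 1423 in the naive samples, 971 to 1295 in the activated, 1078 to 1181 in the NKT-like and 894 to 1075 in the cultured CD4+ samples, and their part in the members' differences was not tested. Sums over 6 platelet markers (738 to 954) and 8 markers of stroma and endothelium (503 to 697) were highest in activated and naive samples, respectively.

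Most of the other S100 genes did not pass. Of 11 listed, 9 were measured, and against naive cells none rose and 1 fell in the NKT-like cells, while 1 rose and 1 fell in the cultured CD4+ cells. The gene that rose was S100a3, at 7.35 ± 0.40 log2 (SD, n = 3) in the cultured CD4+ samples and 6.17 ± 0.35 (n = 2) in the naive ones, a rise of 2.26-fold (q = 0.0011). S100a3 was 0.477-fold in NKT-like relative to cultured CD4+ cells (q = 0.0032), opposite in direction to Anxa1. The gene that fell in both was S100a8, a subunit of the neutrophil protein calprotectin, at 0.678-fold (q = 0.0058) and 0.654-fold (q = 0.0060), with naive samples at 5.77 ± 0.44 log2. The 9 had a median ratio of 1.03 in the NKT-like and 0.962 in the cultured CD4+ cells. Of all genes 11% were called higher and 6.73% lower in NKT-like over naive cells. In cultured CD4+ over naive cells these shares were 11.8% and 5.61%. The counts of the lists below can be read beside the same shares.

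Members and other S100 genes are neighbours on the chromosome. The members were chosen with earlier results of these data known, so their contrast with the other S100 genes is only a description. RefSeq places 15 S100 genes on chromosome 3, where S100a1, S100a13, S100a14, S100a16, S100a3, S100a2, S100a4, S100a5, S100a6, S100a7a, S100a8 and S100a9 follow each other. Then comes S100a7l2, after 1 other protein-coding gene, and S100a11 and S100a10 lie together beyond a further 54. S100a5 lies between S100a4 and S100a6, and it passed in no comparison, with means of 6.46 in the NKT-like and 6.13 in the naive samples. S100a13 lies between S100a1 and S100a14, which did not pass either. S100a1 gave 1.48-fold (0.977 to 2.23) and S100a14 0.893-fold (0.772 to 1.03) in NKT-like over naive cells.

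**Figure D4:**
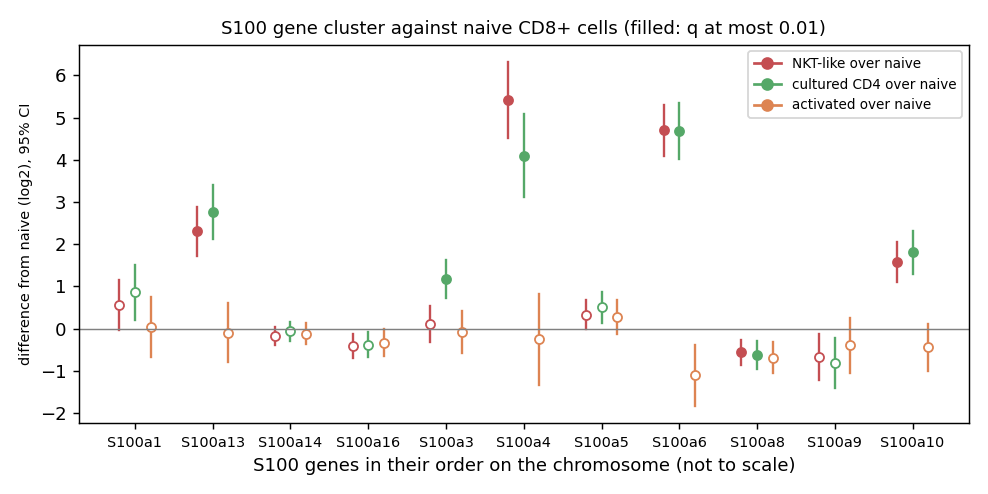
Difference from naive CD8+ cells in log2 (y axis) for S100 genes in their order on the chromosome (x axis, not to scale), for NKT-like, cultured CD4+ and activated cells. Bars are 95% confidence intervals and filled points have q at most 0.01. S100a13, S100a4, S100a6 and S100a10 are filled and above 0 for both cultures, S100a3 for cultured CD4+ cells only, S100a8 is filled and below 0 for both, and S100a1, S100a14, S100a16, S100a5 and S100a9 are open.

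Of 7 other annexins, 6 were measured, and 1 rose. Anxa7, an annexin of exocytosis, rose over naive cells in both cultures, by 3.34-fold with NKT-like cells (q = 0.00087) and by 2.51-fold with cultured CD4+ cells (q = 0.0057). The NKT-like, cultured CD4+ and naive means were 9.71 ± 0.22 (SD, n = 5), 9.30 ± 0.33 (n = 3) and 7.97 ± 0.65 log2 (n = 2). The median ratio of the 6 was 1.02 in the NKT-like and 0.937 in the cultured CD4+ cells.

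Of 22 partners and receptors, 20 were measured. Against naive cells 4 rose in the NKT-like cells and 3 rose and 1 fell in the cultured CD4+ cells. Capn2, the large subunit of a calcium-dependent protease, rose 9.65-fold (q = 3e-05) and 5.04-fold (q = 0.00046), from 8.06 ± 0.42 log2 in naive to 11.33 ± 0.26 in NKT-like and 10.40 ± 0.42 in cultured CD4+ samples. Plscr1, a phospholipid scramblase, rose 7.71-fold, 4.67-fold and, in activated cells, 9.21-fold (q = 0.00037). It shared with Anxa2 a rise in all 3 groups against naive cells. Pdcd6, a calcium-binding protein, and Pdcd6ip, its partner in membrane repair, rose 1.89-fold and 2.05-fold in the NKT-like cells. In the cultured CD4+ cells Plgrkt, a plasminogen receptor, rose 2.27-fold (q = 0.0085), and Myh9, the myosin heavy chain that S100a4 binds, fell to 0.464-fold (q = 0.0072). Ahnak, the scaffold bound by the complex of S100a10 and Anxa2, did not pass against naive cells (2.18-fold in NKT-like cells, q = 0.021) but was 4.75-fold higher in NKT-like than in activated cells (q = 0.0034).

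Of 14 structural genes tied to effector and memory T cells, 4 rose and none fell in each culture against naive cells. Of all genes 11% were called higher in the NKT-like and 11.8% in the cultured CD4+ cells there. Lgals3 and Lgals1, which encode galectins, rose 87.0-fold and 17.6-fold in the NKT-like cells and 38.5-fold and 15-fold in the cultured CD4+ cells. Capg, which caps actin filaments, rose 15.9-fold and 14-fold, and Vim, an intermediate filament, 7.36-fold and 5.48-fold. In activated cells Lgals1 (4.56-fold, q = 0.00016) and Capg (4.68-fold, q = 0.0026) rose, as Anxa2 did. The median ratio over the 14 was 1.27 in the NKT-like and 1.10 in the cultured CD4+ cells.

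Of 15 other calcium sensors, 11 were measured, and 3 rose in the NKT-like and 4 in the cultured CD4+ cells against naive cells. Sri rose 2.02-fold and 2.56-fold, Calu 2.01-fold and 2.55-fold, and Efhd2 1.90-fold and 1.54-fold. Pef1 rose 2.17-fold in the cultured CD4+ cells (q = 0.0029). Rcn1, a calcium-binding protein of the endoplasmic reticulum, passed between the cultured lineages, 2.14-fold higher in NKT-like cells (q = 0.0013).

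Over the 12 arrays the members also resembled one another, as a description of points that share 4 groups and their controls. Pearson's r between member pairs ran from 0.550 for Anxa4 and Anxa6 to 0.976 for S100a10 and S100a6. Among all 18193 genes, S100a6 was the one most like S100a10, and r was 0.970 for Glrx and for Kif1c. S100a6 itself was most like Ctla2a (0.991), F2r (0.991) and Id2 (0.985), and S100a4 was most like H1f2 (0.992), Ifitm3 (0.991) and Havcr2 (0.989). For S100a13 the nearest were Glrx (0.991), Prr13 (0.979) and Ppp3cc (0.976).

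For Anxa2 the most similar genes were Lgals1 (0.989), Capg (0.978) and Srp72 (0.975), the first and second of which also rose in activated cells. Anxa1, with its higher signal in NKT-like cells, was most like Lrrk1 (0.990), P2ry14 (0.985) and Sytl2 (0.985). Anxa5 was nearest to Tmem219 (0.991), Sec11c (0.970) and Yipf6 (0.966), and Anxa4 to Pmaip1, Cmpk1 and Ech1, each at 0.966. For Anxa6 the highest values were 0.929 for Laptm5 and Ptk2b and 0.928 for Rab5c.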

How the data were processed

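RNA of 12 samples in 4 groups was measured on single-colour arrays. The authors made log2 values with RMA, which corrects background, normalizes by quantiles and summarises probe sets, and deposited them as 1 table. The version, and whether all arrays were normalized together, are not given in the sources used here. NKT-like replicate 2 had exactly the same value as another array for 46 to 110 probe sets, against 209 to 914 in pairs of the other arrays. The cause was not tested. Array medians ran from 6.23 to 6.42, and the number of arrays limits the precision. Groups came from the sample titles. Of 45101 probe sets 64 controls were left out. A total of 34945 carry 1 symbol, 932 several and 9160 none, and for 162 Entrez identifiers without a current symbol the symbol of the array was kept. A gene was read from its probe set with the highest mean, and one ending in _x_at only where it had no other.

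All 4 groups entered 1 linear model of limma 3.58.1 in R 4.3.3 (8 residual and 3.03 prior degrees of freedom), and Storey q-values were computed for each of the 6 comparisons, with a threshold of 0.01. Fold changes are ratios on the linear scale, obtained from the differences of group means in log2. The methods describe the cultures as independent, while nothing says so of the naive and activated samples, so q-values measure only the spread between these samples. The members and gene lists were chosen with earlier results of these data known. Named genes are all members and, from each other list, up to 4 per comparison with the largest passing change and any moving the other way, and the 3 genes most correlated with each member. The script was tested on simulated data. Alternatives were Benjamini-Hochberg adjustment, a trended robust prior, quantile normalization, median centring, a filter that kept 25425 probe sets reaching 6.3 in at least 1 group, averaging a gene's probe sets, each pair of groups alone, the replicate number as a block, and leaving out each array.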

Additional observations from a re-analysis of the deposited data

Results flagged for a closer look

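Among the 19 probe sets, 3 had an NKT-like sample whose gap to the next value, divided by the range of the 5 samples, was above Dixon's critical value of 0.71. Chance marks about 1 in 20 such groups. NKT-like replicate 5 stood above the rest for Anxa6 probe set 1429246_a_at, at 10.47 log2 against 8.24 for the next sample. NKT-like replicate 1 stood below for S100a13 probe set 1418704_at, at 10.48 against 11.26. NKT-like replicate 2 stood below for Anxa2 probe set 1437691_at, at 3.81 against 3.96, near the lower end of the scale.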

How the results depend on the processing

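Of 30 calls among 54 pairs of member and comparison, 22 held whichever array was left out, and a group left with 1 array was assumed to vary like the others. The number of genes higher ran from 6 to 8 in NKT-like and in cultured CD4+ over naive cells, 5 to 7 in NKT-like and 4 to 5 in cultured CD4+ over activated cells, 0 to 1 in activated over naive cells, and was 1 between the cultured lineages. With each pair of groups fitted alone, 0 genes were higher in activated than in naive cells. The sign of differences that had not passed turned in a few cases. Averaging a gene's probe sets made the rises of Anxa1, Anxa2, Anxa4 and S100a10 over naive cells smaller by up to 5.48 times and ended none of their calls. It gave 0.810-fold for Anxa6 in cultured CD4+ over naive cells and 1.01-fold for S100a10 in NKT-like over cultured CD4+ cells, and quantile normalization gave 0.990-fold for S100a6 in the latter. Leaving out arrays, Anxa6 ran from 0.853 to 2.48 in cultured CD4+ and from 0.372 to 1.08 in activated over naive cells, S100a13 from 0.834 to 1.06 and S100a4 from 0.610 to 1.16 in activated over naive cells, and Anxa5 from 0.913 to 1.31 and S100a6 from 0.893 to 1.10 in NKT-like over cultured CD4+ cells. Quantile normalization and median centring moved the median difference of all probe sets from -0.10 to -0.03 and 0.02 log2 in NKT-like over naive cells.

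The cause of these changes was not tested. Deviations from the group means correlated at r from -0.501 to 0.280 over 13 pairs of same-numbered samples. Of these 3 were over 0.1, against 14 of 38 pairs with different numbers. In a group of 2 arrays the deviations mirror each other, so these r values cannot decide whether the numbers pair samples. With the replicate number as a block, 16 of the 30 calls were lost, and S100a6 gave 0.960-fold between the cultured lineages. The genes higher were then 4 in NKT-like over naive, 6 in cultured CD4+ over naive, 0 in activated over naive, 0 in NKT-like over cultured CD4+, 3 in NKT-like over activated and 1 in cultured CD4+ over activated cells.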
